A study of Mus musculus with 4 samples.

Results

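A set of 10 genes of sugar breakdown, taken by their symbols, is described here in mouse spleen dendritic cells: the glucose transporter Slc2a1 and the glycolytic enzymes Hk2, Pfkp, Aldoa, Tpi1, Gapdh, Pgk1, Eno1, Pkm and Ldha. They are 10 of the 55385 genes in the expression matrix, and all 10 passed the filter on low counts. The cells came from the spleens of 2 wild-type (WT) C57BL6 mice under steady-state conditions. Conventional dendritic cells type 1 (cDC1; CD64-negative, CD11c-positive, MHC II-positive, XCR1-positive and CD172a-negative), conventional dendritic cells type 2 (cDC2; the same but XCR1-negative and CD172a-positive) and unselected live cells had been sorted and mixed, at 50000 to 60000, 10000 and 10000 cells. RNA and 160 surface antibodies with 9 isotype controls were read from the same droplets (CITE-seq), in 2 libraries that form a single group. The comparisons are therefore between cell classes inside each library. Whether the libraries hold separate mice is not stated. The main tests set aside a library difference shared by all classes. Their p-values reflect only how differences between classes varied over these 2 libraries, and that variation may be technical.

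Glycolysis splits a glucose molecule into pyruvate in a fixed series of steps. Glucose enters through facilitative transporters such as Slc2a1 (GLUT1), is trapped by hexokinases such as Hk2, and is committed to the pathway by phosphofructokinases such as Pfkp. Aldoa cuts the sugar into smaller ones and Tpi1 interconverts them. Gapdh, Pgk1, Eno1 and Pkm carry the lower, energy-yielding steps, and Ldha turns pyruvate into lactate. Dendritic cells stimulated through innate receptors are known for a rapid rise in glycolysis. The homeostatic maturation that happens without infection, in which dendritic cells gain Ccr7 and move towards T cell zones, is the process the series was made to study.

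Promoters of 4 of the genes are shown because their mRNA levels moved in opposite directions or by the largest amounts in mature cDC1. Capitals mark ACGTG or GCGTG on either strand (a match on the opposite strand appears as its reverse complement), the core letters bound by hypoxia-inducible factors. Where matches overlap, both are counted, so that CACGTG counts on each strand. The sequences run from 250 bases before to 50 after a RefSeq transcript start, on GRCm38.p6, the same build as the mm10 named for the files. Slc2a1 lies at chr4:119108745-119137330, Hk2 at chr6:82725025-82774454, Ldha at chr7:46842274-46855627 and Aldoa at chr7:126795234-126800994. Ldha has 2 such starts in the table and Aldoa 3, and 1 of each is printed.
Slc2a1, chr4:119108495-119108794, plus strand, 2 matches: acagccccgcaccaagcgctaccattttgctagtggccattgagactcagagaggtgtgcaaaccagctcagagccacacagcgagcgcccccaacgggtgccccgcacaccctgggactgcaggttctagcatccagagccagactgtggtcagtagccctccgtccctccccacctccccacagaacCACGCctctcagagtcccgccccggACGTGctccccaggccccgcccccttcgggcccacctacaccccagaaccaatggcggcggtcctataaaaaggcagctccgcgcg
Hk2, chr6:82774405-82774704, minus strand, 2 matches: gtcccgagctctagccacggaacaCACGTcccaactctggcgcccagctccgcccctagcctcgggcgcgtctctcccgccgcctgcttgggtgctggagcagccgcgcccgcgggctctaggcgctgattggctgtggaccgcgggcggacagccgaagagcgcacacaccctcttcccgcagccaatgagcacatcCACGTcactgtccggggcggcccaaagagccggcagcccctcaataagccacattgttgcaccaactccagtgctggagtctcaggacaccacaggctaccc
Ldha, chr7:46845554-46845853, plus strand, 7 matches: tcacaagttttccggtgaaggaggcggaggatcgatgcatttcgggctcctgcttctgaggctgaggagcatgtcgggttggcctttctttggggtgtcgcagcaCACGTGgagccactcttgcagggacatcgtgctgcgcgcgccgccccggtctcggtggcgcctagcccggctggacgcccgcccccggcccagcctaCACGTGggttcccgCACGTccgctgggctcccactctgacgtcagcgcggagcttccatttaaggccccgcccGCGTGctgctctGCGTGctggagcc
Aldoa, chr7:126799205-126799504, minus strand, 1 match: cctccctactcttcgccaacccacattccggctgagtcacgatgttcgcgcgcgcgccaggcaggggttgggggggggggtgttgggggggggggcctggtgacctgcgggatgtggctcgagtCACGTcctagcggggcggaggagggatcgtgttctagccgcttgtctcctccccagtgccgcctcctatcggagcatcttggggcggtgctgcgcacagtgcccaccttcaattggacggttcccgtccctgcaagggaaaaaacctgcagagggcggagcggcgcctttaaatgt
Of the 16 RefSeq promoters of the 10 genes, 13 (81.2%) held at least 1 match, against 14380 of all 32851 promoters of that length (43.8%). Windows of nearby starts overlap for Eno1 and for Aldoa, so some sites are counted more than once. By gene, 9 of the 10 had a match, and no such share was read for all genes. Tpi1 was the gene without one. At least 3 matches, as in this Ldha promoter, were found in 8.93% of all promoters. A match describes letters in the window and is not a mapped binding site.

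The matrix held 31790 barcodes, 13822 in library 1 and 17968 in library 2, with 99617992 and 129565040 RNA molecules counted by unique molecular identifiers (UMIs). After filtering and removal of 546 and 1064 predicted doublets, 12166 and 15976 cells remained, with medians of 6941.5 and 6884.5 UMIs. Of the barcode sequences, 61 occurred in both libraries. Levels below are CPM, a gene's UMIs scaled to the same total of RNA UMIs in every class, given for library 1 and then library 2. Lineage was set by antibody UMIs, cDC1 where XCR1 exceeded CD172a and cDC2 where it was the reverse, and 1637 cells with equal counts were left out. Mature cells carried at least 3 UMIs each of Ccr7, the chemokine receptor for lymph node homing, and Fscn1, an actin bundler of mature dendritic cells. Intermediate cells had at least 3 of Ccr7 but fewer than 3 of Fscn1. Immature cells had no Ccr7 and fewer than 5 UMIs over 20 cell cycle genes. Immature cDC1 also had fewer than 3 UMIs of Ccr2, a gate not set for cDC2. The 1109 cDC1 and 761 cDC2 with 1 or 2 Ccr7 UMIs were left out of these classes. There were 4748 and 7502 immature, 194 and 223 intermediate and 201 and 243 mature cDC1. Near the gate, 24 cells with enough Ccr7 had 2 Fscn1 UMIs, and 36 mature cDC1 had exactly 3.

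The cDC1 classes held mostly cDC1 marker RNA, whereas the cDC2 classes held both lists. The 9 cDC1 marker genes summed to 5564 and 6063 CPM in immature cDC1, where the 9 cDC2 markers summed to 28.3 and 32.5 CPM. In immature cDC2 the cDC2 markers reached 1720 and 1657 CPM, below the cDC1 list at 1793 and 2039 CPM. In mature cDC2 the cDC2 markers likewise summed to 1306 and 1264 CPM and the cDC1 markers to 1442 and 1559 CPM, so the cDC2 label rests on the surface antibodies. In mature cDC1 the cDC1 markers stood at 2020 and 2894 CPM, below the immature values. The 14 mature dendritic cell markers, which include the gate genes, went from 808 and 903 CPM in immature to 26632 and 21947 CPM in mature cDC1. Classes named from clusters carry "-like", and dendritic clusters were told from other cells by surface CD11c.

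**Figure D1:**
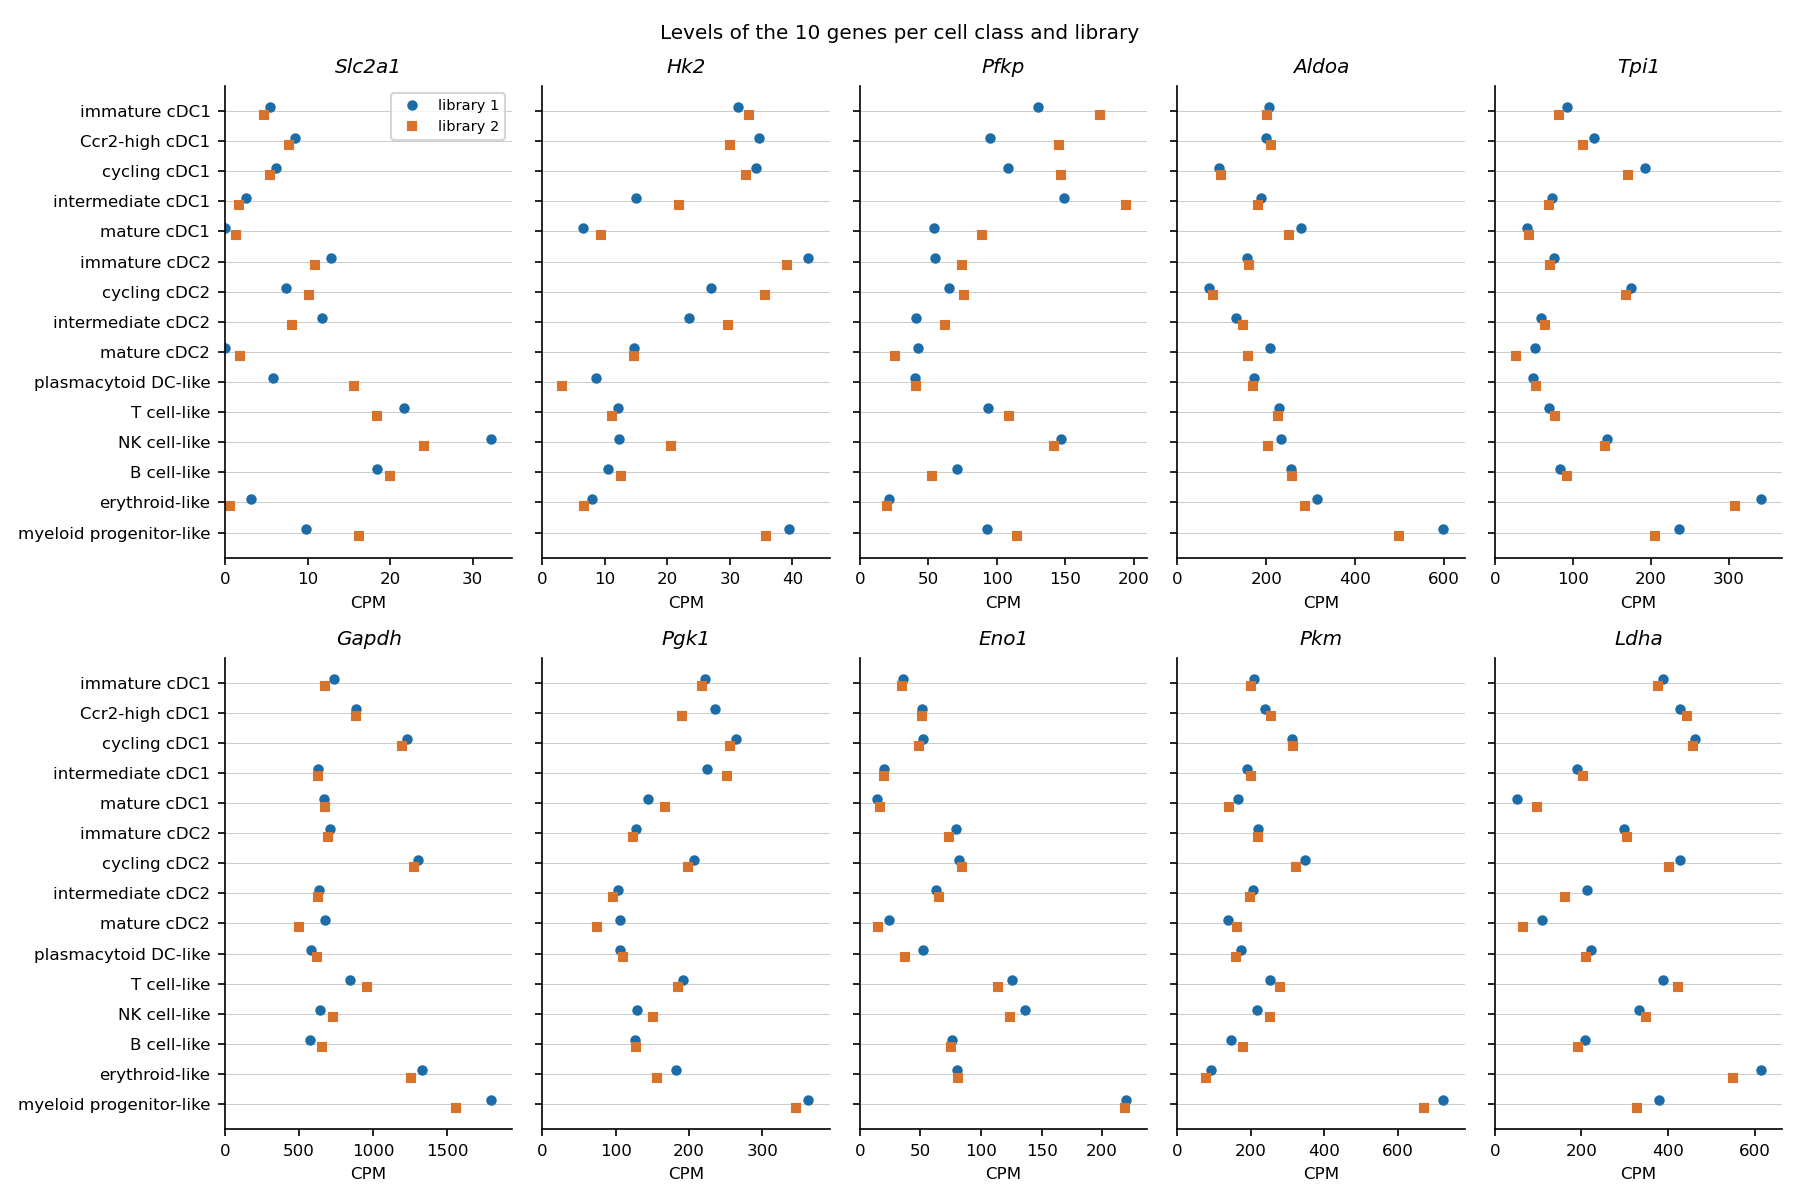
Level of each of the 10 genes (CPM, linear axis from 0, 1 panel per gene) in 15 cell classes; circles are library 1 and squares library 2. Myeloid progenitor-like cells stand farthest to the right for Aldoa, Gapdh, Pgk1, Eno1 and Pkm, mature cDC1 and mature cDC2 to the left for Slc2a1, Tpi1, Eno1 and Ldha, and Aldoa is higher in mature than in cycling cells.

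As a share of RNA UMIs, mature cDC1 held less mRNA of most of the pathway than immature cDC1. Ldha, Hk2 and Slc2a1 were lowest relative to the immature level, while Aldoa was higher and Gapdh was not called different. The 10 genes together took 0.206% and 0.200% of RNA UMIs in immature cDC1 and 0.142% and 0.149% in mature cDC1. Of the 10 genes, 8 were lower, 1 was higher and 1 did not pass the test (edgeR quasi-likelihood test, adjusted p under 0.05 over 11411 genes). Among all genes tested, 55.2% were called, 24.8% higher and 30.3% lower. The median log2 difference was -0.97 over the 10 genes and -0.21 over all genes tested.

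At the entry of the pathway, Slc2a1 was counted at 5.51 and 4.73 CPM in immature cDC1 and at 0 and 1.35 CPM in mature cDC1. Only 2 Slc2a1 UMIs were found in all mature cDC1 against 489 in immature cDC1, a ratio of levels of 0.146 (exact 95% interval 0.0177 to 0.532, counting error only). The fitted log2 difference for Slc2a1 was -2.67 ± 0.75 (SE; edgeR adjusted p = 0.00254), which at such counts gives no bound on the fold. Both mature libraries lay below both immature libraries. Hk2, which phosphorylates glucose inside the cell, was at 31.3 and 33.0 CPM in immature and 6.53 and 9.45 CPM in mature cDC1. The mature values did not reach the immature ones, and the difference was -1.90 ± 0.25 (edgeR adjusted p = 2.21e-08), or 3.74-fold lower. Pfkp, the platelet-type phosphofructokinase, was at 129.9 and 175.0 CPM in immature and 53.9 and 89.1 CPM in mature cDC1. It was lower, again without overlap (log2 -1.001 ± 0.12, edgeR adjusted p = 4.67e-09).

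The sugar-splitting steps went apart. Aldoa was at 205 and 201 CPM in immature and at 278 and 251 CPM in mature cDC1, higher in both libraries by 0.47 ± 0.10 on the log2 scale (edgeR adjusted p = 0.000151). Per cell, 1.70 and 1.54 Aldoa UMIs were counted in immature and 1.70 and 1.53 in mature cDC1. Aldoa was thus higher as a share of RNA UMIs but not in UMIs per cell. Tpi1, the next enzyme, was at 92.6 and 82.3 CPM in immature and 41.6 and 43.9 CPM in mature cDC1, a log2 difference of -0.94 ± 0.15 (edgeR adjusted p = 5.51e-07). The libraries of the classes did not overlap for either gene, in opposite directions.

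Among the lower steps the differences were uneven. Gapdh was at 735 and 677 CPM in immature and 668 and 677 CPM in mature cDC1, which overlap. Its log2 difference was 0.02 with a 95% interval from -0.16 to 0.20 (edgeR adjusted p = 0.882). Pgk1, which makes the first ATP of the pathway, was at 222 and 218 CPM against 144 and 167 CPM in mature cDC1 (log2 -0.41 ± 0.11, edgeR adjusted p = 0.00179). Both Pgk1 and Pkm were lower in mature cells without overlap, but by small amounts. Pkm, the pyruvate kinase of most tissues outside liver and red cells, was at 209 and 200.1 CPM in immature and 166 and 140.3 CPM in mature cDC1 (log2 -0.33 ± 0.11, edgeR adjusted p = 0.00978). Eno1, the widely expressed enolase, was at 35.6 and 34.6 CPM in immature and 13.9 and 16.9 CPM in mature cDC1, 2.13-fold lower (log2 -1.09 ± 0.18, edgeR adjusted p = 1.89e-06). At the last step, Ldha was at 389 and 376 CPM in immature and 50.6 and 98.5 CPM in mature cDC1. Ldha, whose promoter above holds 7 of the core matches, was 4.74-fold lower (log2 -2.24 ± 0.14, edgeR adjusted p = 6.11e-17), and its 2 mature libraries differed from each other more than the immature ones did.

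**Figure D2:**
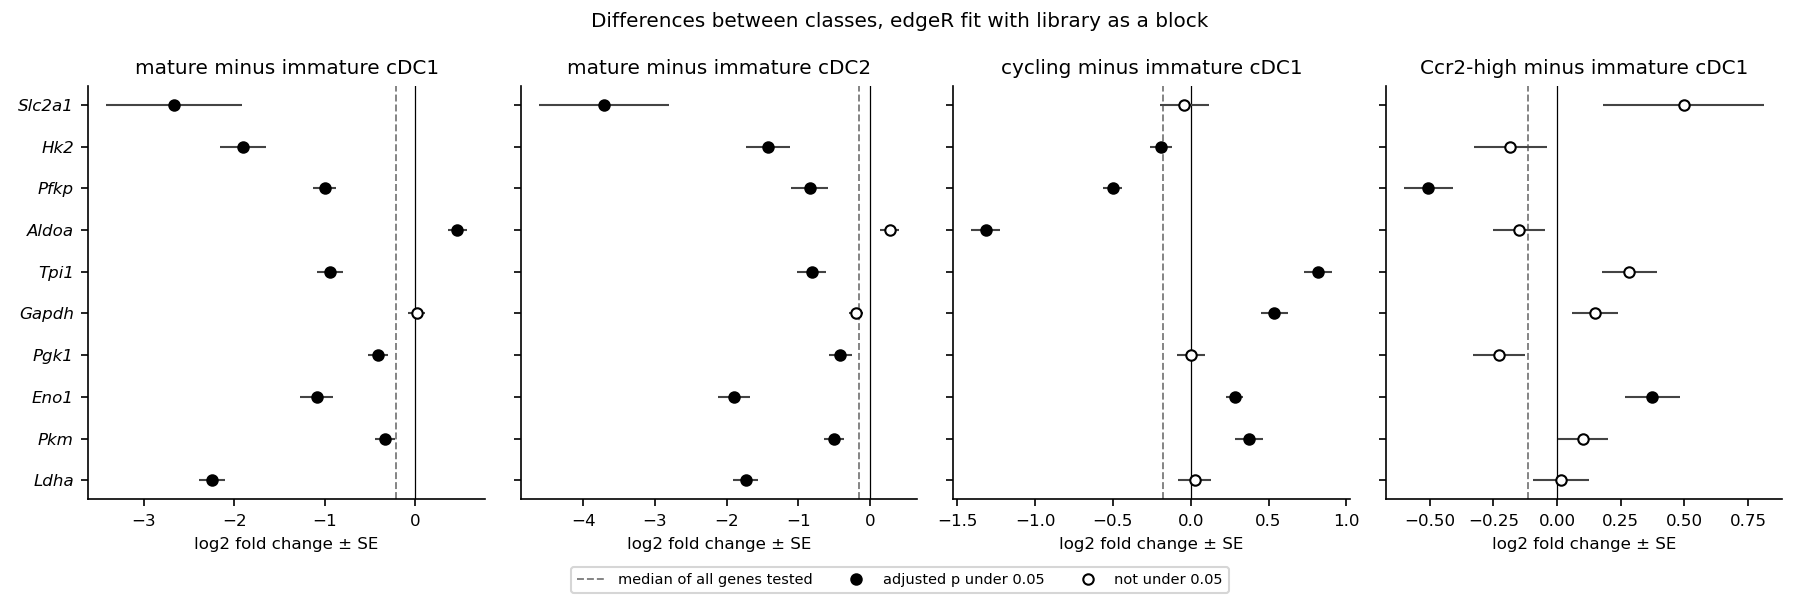
Fitted log2 fold change ± SE of the 10 genes in 4 comparisons (edgeR, library as a block); filled points passed adjusted p under 0.05, open points did not, and the dashed grey line is the median of all genes tested. In mature cDC1 and mature cDC2 most points lie left of the dashed line, farthest for Slc2a1, Ldha and Hk2 in cDC1 and for Slc2a1, Eno1 and Ldha in cDC2, whereas in cycling cDC1 Aldoa lies left and Tpi1 right.

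Other values moved with maturity. Median UMIs per cell were 8480.5 and 7644 in immature and 5517 and 5521 in mature cDC1. Red pulp macrophage markers (6 of 8 with a UMI in each library, Cd5l at 0 in both, C1qc in library 1 and Slc40a1 in library 2) summed to 187 and 187 CPM in mature against 48.8 and 50.2 CPM in immature cDC1. T cell markers (8 and 6 of 8 with a UMI, Cd3g and Lef1 at 0 in library 2) summed to 65.3 and 40.5 CPM against 8.60 and 7.27 CPM. B cell markers (3 and 7 of 7, with Cd79a, Pax5 and Ebf1 among those at 0 in library 1) summed to 44.9 and 56.7 CPM against 17.5 and 14.0 CPM, and cell cycle genes to 76.7 and 304 CPM against 73.6 and 78.2 CPM. Their part in the result was not tested. Pkm was not called under 6 of the alternatives (edgeR or DESeq2 adjusted p 0.107 to 0.306) and Pgk1 under 2 (0.0594 to 0.0768). With doublets kept the differences were -1.22 for Ldha, -1.31 for Hk2 and -0.78 for Slc2a1 (edgeR adjusted p = 0.107), and library 1 alone gave -2.92 for Ldha and library 2 alone -1.29 for Slc2a1, both on library totals with no test.

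The steps between the gates were followed by Ccr7 UMIs per cell, from 6108 and 9218 cDC1 without Ccr7 to 190 and 209 with 20 or more. These bins use a gate gene and shrink in depth, from a median of 8950.5 and 7996.5 UMIs to 6069.5 and 5789, so they are a description. The bin without Ccr7 is also not the immature class, because it includes cycling and Ccr2-high cDC1. Tpi1 was at 193 and 171 CPM in cycling and 92.6 and 82.3 CPM in immature cDC1. Aldoa was at 93.6 and 98.7 CPM in cycling and 205 and 201 CPM in immature cDC1. Ldha went in library 1 from 410 CPM at 0 Ccr7 UMIs through 379, 264 and 87.1 CPM to 66.9 CPM at 20 or more, and in library 2 from 397 through 374, 238 and 133 to 107 CPM. Tpi1 went from 121 and 103 CPM at 0 to 31.1 and 41.7 CPM at 20 or more, and Hk2 from 32.2 and 32.8 to 5.45 and 11.1 CPM. Cells with 1 or 2 Ccr7 UMIs were close to those with none for these genes. Pfkp was at 136 and 203 CPM at 3 to 9 Ccr7 UMIs, at 126 and 147 CPM at 10 to 19 and at 79.4 and 105 CPM in the topmost bin, so in library 2 it was already lower one bin earlier. Pgk1 was at 203 and 232 CPM at 3 to 9, at 240 and 244 CPM at 10 to 19 and at 153 and 184 CPM at 20 or more.

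**Figure D3:**
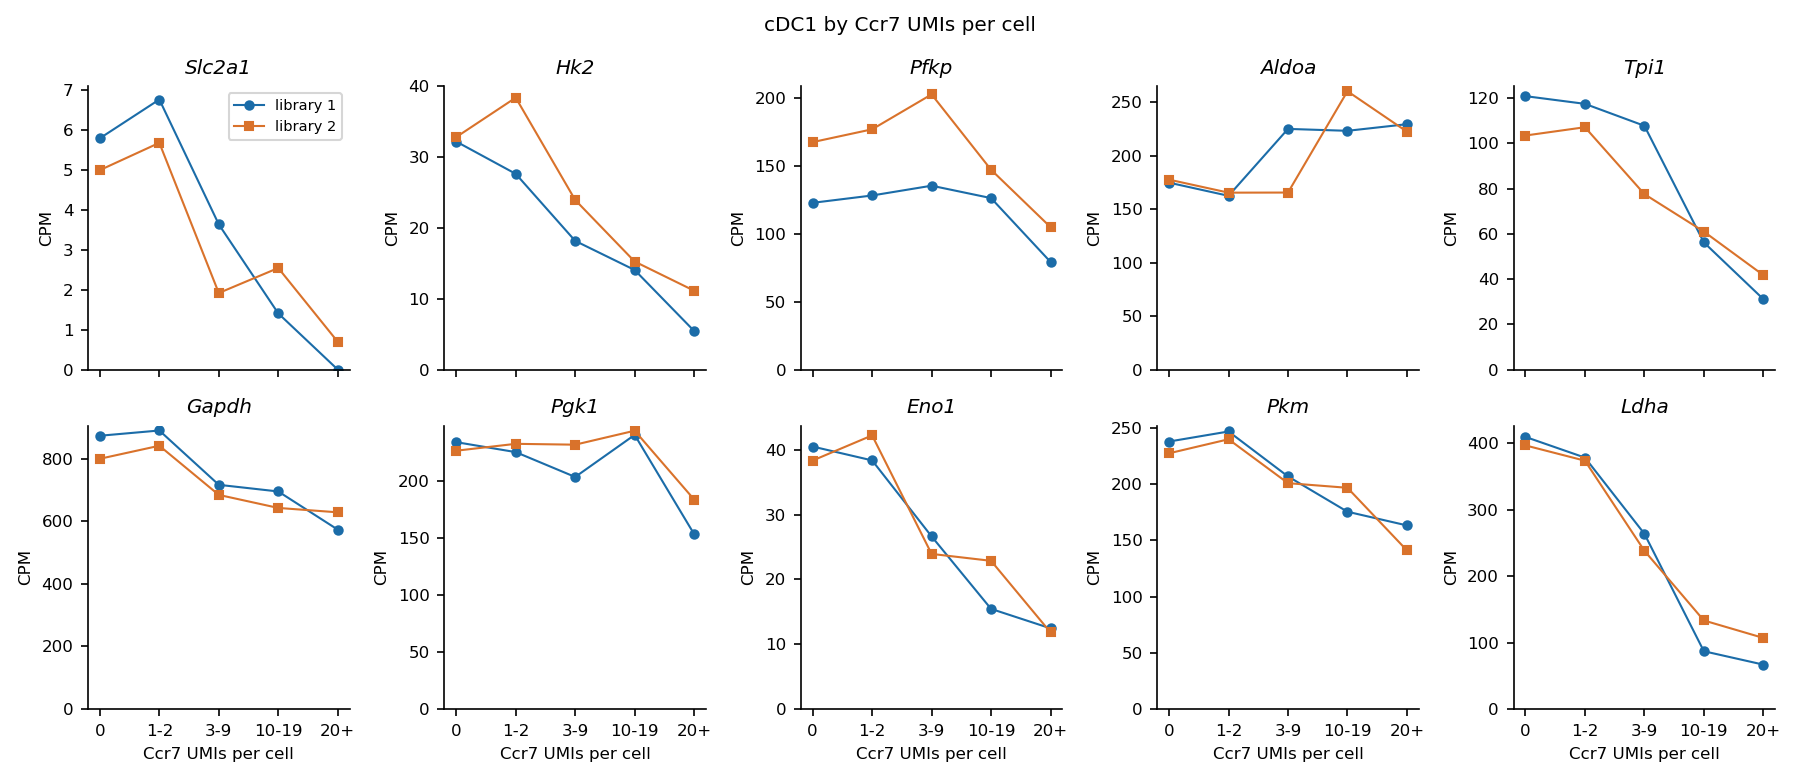
Level of each gene (CPM, axes from 0) in cDC1 grouped by Ccr7 UMIs per cell; lines join the 5 bins of a library, circles for library 1 and squares for library 2. Ldha, Tpi1, Eno1 and Hk2 step down between 1-2 and 10-19 Ccr7 UMIs, while Pfkp and Pgk1 are lowest in the last bin and Aldoa is not lower there than at 0. The bin at 0 includes cycling and Ccr2-high cDC1.

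In the intermediate class, Ccr7-positive cells below the Fscn1 gate, 3 of the 10 genes were lower and 1 was higher than in immature cDC1 (34.9% of all genes were called, 15.1% higher and 19.8% lower). Ldha was at 190 and 202 CPM, between the immature and mature levels, with a log2 difference of -0.88 ± 0.12 from immature cDC1 (edgeR adjusted p = 1.33e-07). Hk2 was at 15.0 and 21.8 CPM (log2 -0.71 ± 0.18, edgeR adjusted p = 0.00154) and Eno1 at 20.03 and 19.6 CPM (log2 -0.75 ± 0.15, edgeR adjusted p = 0.000123). Both were likewise below both immature libraries. Pfkp, by contrast, was higher than in immature cDC1 within each library at 149 and 194 CPM (log2 0.25 ± 0.09, edgeR adjusted p = 0.0275), a call lost in 7 alternatives. The Eno1 call was lost with doublets kept (log2 -0.15, edgeR adjusted p = 0.389) and after thinning (0.0914), Ldha was at -1.57 after thinning, and 43.2% of called genes were higher here against 56.2% with RLE size factors. Markers of other cells differed in this class too. Red pulp macrophage markers (8 of 8 with a UMI in both libraries) summed to 145 and 182 CPM, B cell markers (2 and 5 of 7, with Pax5 at 0 in both) to 65.1 and 73.8 CPM, T cell markers (8 and 7 of 8) to 41.9 and 21.8 CPM and cell cycle genes to 186 and 191 CPM, each above the immature values given earlier, and their part in the result was not tested.

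Mature cDC2 also held less of most of these mRNAs than immature cDC2. Of the 10 genes 8 were lower in mature than in immature cDC2 and none was higher, where 34.5% of all genes were called, 16% higher and 18.5% lower. The median was -0.83 over the 10 genes and -0.16 over all genes tested. Slc2a1 was at 12.9 and 10.96 CPM in immature cDC2 and at 0 and 1.83 CPM, a single UMI, in mature cDC2. The ratio of the Slc2a1 levels was 0.0723 (exact 95% interval 0.00182 to 0.408; edgeR log2 -3.71 ± 0.91, adjusted p = 0.00109). Hk2 was at 42.5 and 39.2 CPM in immature and 14.6 and 14.7 CPM in mature cDC2 (log2 -1.43 ± 0.31, edgeR adjusted p = 0.000247). Few molecules stand behind these mature values: after thinning every cell to 3000 UMIs neither gene was called (edgeR adjusted p = 0.131 for Slc2a1 and 0.107 for Hk2). With a lineage gate 2-fold apart Hk2 was at -2.64 and Slc2a1 at -9.09, and with doublets kept Slc2a1 was at -1.90.

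Ldha was at 298 and 305 CPM in immature and 109 and 64.2 CPM in mature cDC2 (log2 -1.73 ± 0.18, edgeR adjusted p = 1.08e-10). Eno1 was at 79.6 and 73.5 CPM against 24.3 and 14.7 CPM (log2 -1.90 ± 0.22, edgeR adjusted p = 2.52e-09). For both enzymes the mature libraries lay far below the immature ones. Smaller reductions were called for Pfkp (54.6 and 74.3 to 42.1 and 25.7 CPM, log2 -0.85 ± 0.26), Tpi1 (76.5 and 70.5 to 51.8 and 27.5 CPM, -0.81 ± 0.21), Pkm (221 and 220 to 139 and 161 CPM, -0.51 ± 0.14) and Pgk1 (128 and 124 to 105 and 75.2 CPM, -0.42 ± 0.16), with edgeR adjusted p from 0.00153 to 0.0408. The Pgk1 call was lost in 6 alternatives (edgeR or DESeq2 adjusted p 0.0691 to 0.486), the Pfkp call in 4, the fit without the library block among them (0.0522 to 0.176), and the Pkm call with doublets kept (0.116). Gapdh, at 709 and 692 CPM in immature and 674 and 501 CPM in mature cDC2, did not pass (log2 -0.20, edgeR adjusted p = 0.142). Aldoa was at 156 and 161 CPM in immature and 207 and 160 CPM in mature cDC2, where the libraries overlap, and its 0.27 ± 0.13 missed the threshold (edgeR adjusted p = 0.116), though it passed with RLE size factors and DESeq2 (log2 0.42 in both).

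The mature cDC2 class was small, with 130 and 142 cells. T cell markers (5 and 4 of 8 with a UMI, Trbc2 at 0 in both) summed there to 177 and 231 CPM against 16.7 and 18.7 CPM in immature cDC2. NK cell markers summed to 8.10 and 176 CPM (1 and 6 of 8, with Ncr1, Gzma and Prf1 at 0 in library 1 and Eomes and Klra8 at 0 in both) against 15.9 and 18.9 CPM, and cell cycle genes to 254 and 528 CPM. Their part in the result was not tested. Thinning left 4 of the 8 calls and put Ldha at -2.32, doublets kept put Ldha at -0.90, and without library 1 Pfkp was at -1.50 and Slc2a1 at -2.08 on library totals. Of the genes called, 46.4% were higher, against 56.6% with RLE size factors and 61.2% with DESeq2.

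Whether maturation differed between the lineages was tested by the interaction term. None of the 10 genes passed (edgeR and DESeq2, 0 each), with 7.53% of all genes called (2.34% positive and 5.19% negative) and 2 of the 10 under an unadjusted p of 0.05. Those were Eno1, with the larger reduction in cDC2 (interaction -0.81, 95% interval -1.46 to -0.16, edgeR adjusted p = 0.192), and Ldha, with the smaller (0.51, interval 0.02 to 0.998, edgeR adjusted p = 0.257). The Slc2a1 term spanned -4.56 to 2.47, so its counts hold little information on a difference between lineages. The 2 mature classes compared directly differed in 4 of the 10 genes, all lower in mature cDC2 (11.1% of all genes called, 4.5% higher and 6.56% lower). The log2 difference was -1.25 ± 0.28 for Pfkp (edgeR adjusted p = 0.00123), -0.98 ± 0.17 for Pgk1 (4.46e-05), -0.73 ± 0.14 for Aldoa (0.000166) and -0.40 ± 0.11 for Gapdh (0.0101). In CPM the Gapdh libraries overlapped and only library 2 was lower in mature cDC2. The Gapdh call was lost on library totals and with doublets kept (edgeR adjusted p 0.195 to 0.270) and the Pfkp call after thinning (0.270). Without library 2 the Pfkp difference was -0.35 and that of Gapdh 0.01, and of the genes called 40.7% were higher, against 70.0% on library totals.

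Related genes outside the 10 were read from 6 lists. They did not all follow the 10 genes: Eno2, Eno3, Slc2a6, Pfkfb3 and Pygl were much higher in mature than in immature cDC1. Counts for each list are to be read against the 24.8% higher and 30.3% lower among all genes in that comparison. Among other glycolytic isozymes and steps, 16 of 23 were testable in mature against immature cDC1, with 4 higher and 5 lower and a median log2 difference of -0.64. Eno2, the enolase best known from neurons, went from 0.127 and 0.139 CPM to 48.2 and 41.2 CPM (log2 8.25 ± 0.32, edgeR adjusted p = 8.06e-22). Eno3, the muscle enolase, went from 9.41 and 9.05 CPM to 452 and 337 CPM (log2 5.49 ± 0.10, edgeR adjusted p = 5.08e-35). Both enolase isozymes thus stood opposite to Eno1. Eno3 overlaps the abundant Pfn1 over 3675 bases in the RefSeq annotation, and Pfn1 was at 1753 and 1488 CPM in immature and 2089 and 1769 CPM in mature cDC1. Slc2a6, a glucose transporter family member of lysosomes, went from 0.761 and 1.20 CPM to 72.6 and 56.0 CPM (log2 6.04 ± 0.23, edgeR adjusted p = 1e-24), opposite to Slc2a1.

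Among 8 testable flux regulators, 1 was higher and 1 lower (median log2 0.06), fewer called than the 55.2% of all genes. Pfkfb3, which makes an activator of phosphofructokinase, was at 32.7 and 42.1 CPM in immature, 309 and 263 CPM in intermediate and 758 and 704 CPM in mature cDC1 (mature minus immature log2 4.37 ± 0.09, edgeR adjusted p = 6.05e-33). Txnip, a brake on glucose uptake, went the other way, from 35.4 and 27.7 to 8.98 and 14.8 CPM (log2 -1.27, edgeR adjusted p = 7.03e-05). In mature cDC2 both had the same directions: Pfkfb3 was at 517 and 519 CPM against 27.2 and 27.5 CPM (log2 4.29 ± 0.15, edgeR adjusted p = 2.09e-24), and Txnip at 19.4 and 27.5 CPM against 85.9 and 79.6 CPM (-1.78 ± 0.28, 1.22e-06).

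The routes that branch off were read next. Of 13 testable genes of lactate and pyruvate fate, 7 were lower and none higher (median log2 -0.38). The lactate carrier Slc16a1 was at 3.02 and 2.19 CPM in immature cDC1 and had no UMI in mature cDC1, so no fold is given. Of the 7 pentose phosphate genes 3 were lower, led by the transaldolase Taldo1, which went from 1258 and 1226 to 294 and 387 CPM (log2 -1.78 ± 0.09, edgeR adjusted p = 1.35e-20). Taldo1 was also lower in mature than in immature cDC2 (log2 -1.56 ± 0.10, edgeR adjusted p = 8.2e-17). Among 9 testable glycogen genes, 2 were higher and 2 lower: the liver-type glycogen phosphorylase Pygl, which releases glucose units from glycogen, went from 0.888 and 0.818 to 45.7 and 51.3 CPM (log2 5.90 ± 0.23, edgeR adjusted p = 3.15e-24). Gyg, which primes glycogen chains, went from 41.3 and 50.1 to 123 and 135 CPM (log2 1.57, edgeR adjusted p = 2.24e-16).

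Of 16 testable hypoxia-response genes outside glycolysis, 3 were higher and 6 lower in mature cDC1 (median log2 -0.70), close to the 55.2% of all genes called. Ndrg1, a stress-induced gene, went from 7.79 and 10.3 to 46.5 and 91.1 CPM (log2 3.02, edgeR adjusted p = 1.18e-18). Fam162a went from 53.4 and 50.3 to 9.79 and 12.8 CPM (log2 -2.09, edgeR adjusted p = 4.35e-10). Slc2a3, the high-affinity glucose transporter GLUT3, differed by lineage: it was at 1.497 and 1.32 CPM in immature cDC1 but at 44.3 and 34.9 CPM in immature cDC2, and at 1.62 and 9.17 CPM in mature cDC2 (mature minus immature cDC2 log2 -2.88 ± 0.41, edgeR adjusted p = 3.07e-07).

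**Figure D4:**
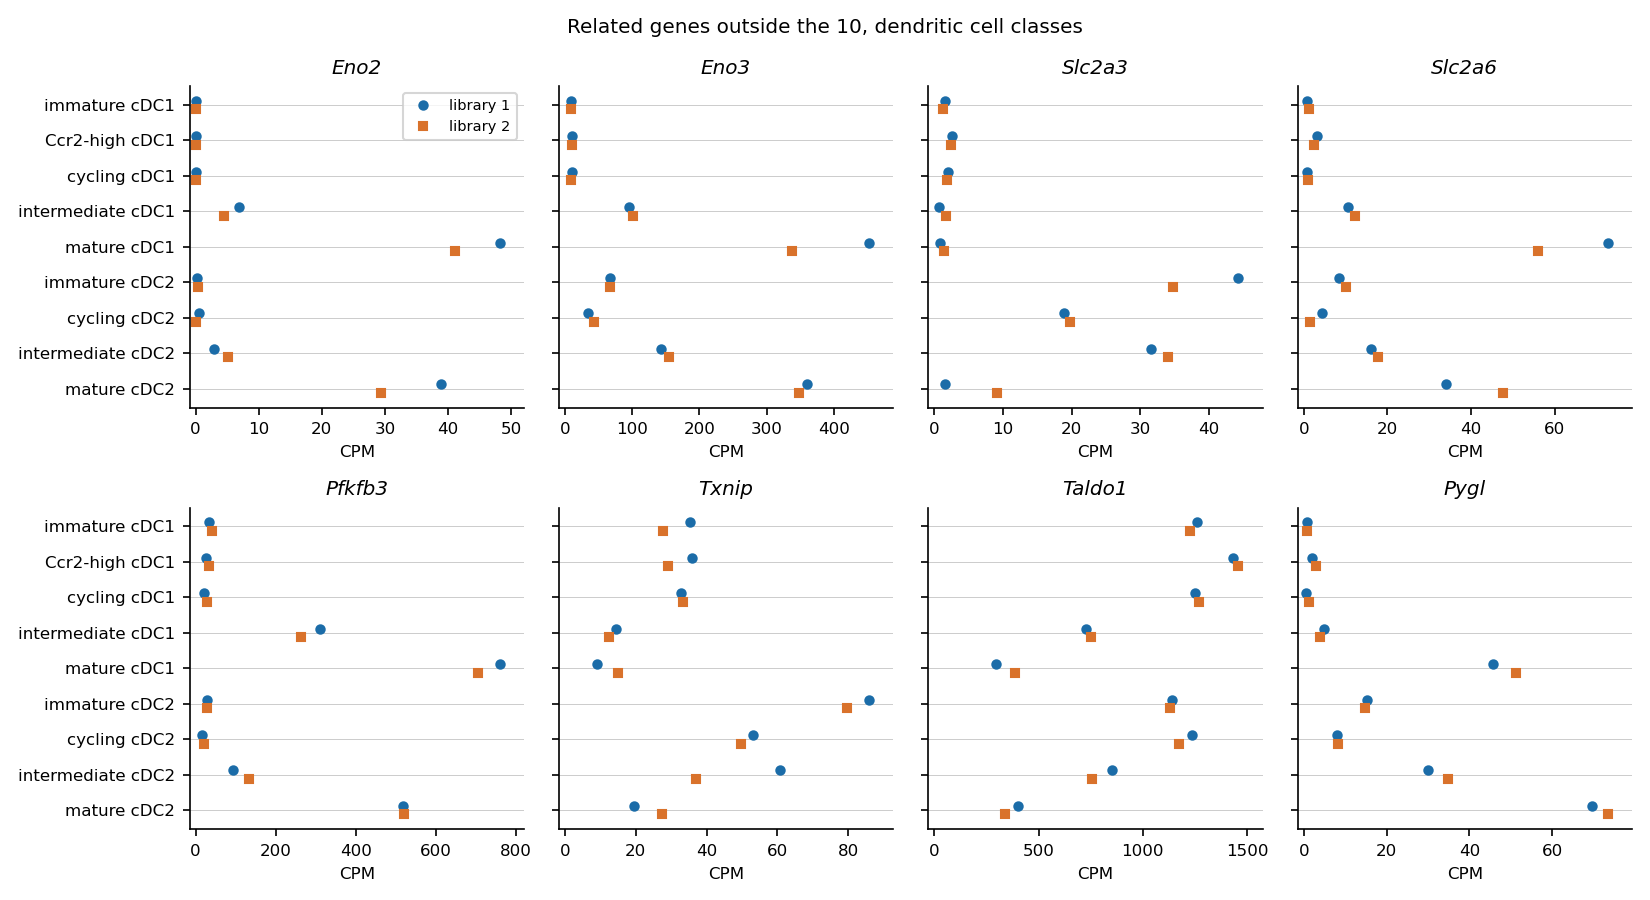
Levels (CPM, linear axes) of 8 related genes in 9 conventional dendritic cell classes; circles are library 1 and squares library 2. Eno2, Eno3, Slc2a6, Pfkfb3 and Pygl are highest in mature classes, Taldo1 is lowest there, and Slc2a3 is high in cDC2 before maturity.

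Cycling cDC1, with at least 5 UMIs over the 20 cell cycle genes and no Ccr7, gave a mixed picture: 4 genes were higher than in immature cDC1 and 3 lower, where 55% of all genes were called, 16% higher and 39% lower. Their median log2 difference was 0.01, against -0.18 over all genes. The class held 1181 and 1481 cells with medians of 12553 and 11611 UMIs, more than the immature cells, and the 10 genes took 0.276% and 0.273% of RNA UMIs. Aldoa was at 93.6 and 98.7 CPM against 205 and 201 CPM in immature cDC1, the lowest of all cDC1 classes (log2 -1.32 ± 0.09, edgeR adjusted p = 1.2e-15). Tpi1, the following enzyme, was at 193 and 171 CPM against 92.6 and 82.3 CPM (log2 0.82 ± 0.09, edgeR adjusted p = 2.38e-10). Aldoa and Tpi1 had thus opposite signs in cycling cells, each reversed from its sign in mature cells. Gapdh was at 1230 and 1192 CPM (log2 0.54 ± 0.09, edgeR adjusted p = 2.17e-06), Pkm at 313 and 314 CPM (0.37 ± 0.09, 0.000427) and Eno1 at 52.0 and 49.0 CPM (0.28 ± 0.06, 4.62e-05), each above both immature libraries.

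Pfkp was lower within both libraries at 108 and 147 CPM (log2 -0.50 ± 0.06, edgeR adjusted p = 6.07e-09). Ldha was at 462 and 459 CPM and Pgk1 at 264 and 257 CPM, above both immature libraries in CPM. Fitted with TMM scaling, which sets composition differences between classes aside, their log2 differences were 0.02 and 0.00 (edgeR adjusted p = 0.861 and 1). These values depend on the scaling: on library totals Pgk1 was at 0.24, Ldha at 0.27 and Hk2 at 0.05, against -0.19 ± 0.07 for Hk2 with TMM (edgeR adjusted p = 0.0172), a call lost or reversed in 8 alternatives. The median of all genes was -0.18 with TMM, -0.08 with RLE and 0.06 on library totals, and 29.1% of called genes were higher with TMM, 42.1% with RLE and 62.8% on totals.

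Inside the cycling class the cells were split by which cell cycle genes were more abundant, as a description. In 380 and 434 cells with more S-phase genes, Ldha was at 554 and 561 CPM, and in 775 and 1011 cells with more mitotic genes at 414 and 408 CPM. Tpi1 likewise went from 227.2 and 227.4 CPM to 176 and 144 CPM, and Aldoa from 125 and 132 to 75.6 and 83.6 CPM. Gapdh had the reverse order, with 1149 and 1109 CPM in S-phase and 1274 and 1234 CPM in mitotic cells. For each of these genes the libraries of the S-phase cells did not overlap those of the mitotic cells. The same held for Slc2a1, Pgk1 and Pkm, whereas Hk2, Pfkp and Eno1 overlapped. How often this occurs over all genes was not counted, so no conclusion is drawn from it.

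Ccr2-high cDC1 had no Ccr7, few cell cycle UMIs and at least 3 UMIs of Ccr2, a chemokine receptor that guides cells out of bone marrow and into tissues. In these 179 and 235 cells, 1 of the 10 genes was higher and 1 lower than in immature cDC1, against 9.58% of all genes called (1.95% higher and 7.63% lower). Eno1 was at 51.0 and 51.4 CPM against 35.6 and 34.6 CPM (log2 0.37 ± 0.11, edgeR adjusted p = 0.0193). Pfkp was lower within each library at 94.8 and 145 CPM (log2 -0.51 ± 0.10, edgeR adjusted p = 0.000236), although the ranges of the classes overlap because Pfkp was higher in library 2. Slc2a1 stood at 8.50 and 7.75 CPM from 29 UMIs (log2 0.50 ± 0.32, edgeR adjusted p = 0.39). Among the related genes, Hk3, a hexokinase of myeloid cells, was lower (22.2 and 30.5 against 44.2 and 52.9 CPM, log2 -1.04 ± 0.16, edgeR adjusted p = 9.46e-06). Hk1, the widely expressed hexokinase, was higher (15.0 and 14.5 against 7.99 and 7.83 CPM, log2 0.72 ± 0.22, edgeR adjusted p = 0.026). Without the library block neither member was called (edgeR, 0 of 10), on library totals 4 were, and of the genes called 20.3% were higher with TMM, 42.7% with RLE and 63.8% on totals. Plasmacytoid dendritic cell markers (6 and 7 of 7 with a UMI, Klk1 at 0 in library 1) summed to 336 and 264 CPM in this class against 183 and 184 CPM in immature cDC1, and cDC2 markers (6 and 7 of 9, Clec4a4 and Mgl2 at 0 in both) to 84.3 and 48.0 CPM against 28.3 and 32.5 CPM. Their part in the result was not tested.

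Immature cDC1 were themselves uneven for these genes. The clusters were made without the 10 genes or the related lists, and their levels are given with no test. Cluster 4, with 885 and 1133 immature cDC1 and led by Ccr2, had Gapdh at 942 and 883 CPM, Ldha at 483 and 457 CPM and Pfkp at 88.0 and 130 CPM. Cluster 0, with 805 and 1699 cells and led by Cxcl9, Rab7b and Apol7c, had Gapdh at 503 and 520 CPM, Ldha at 299 and 316 CPM and Pfkp at 223 and 266 CPM. Gapdh and Ldha were thus lower and Pfkp higher in cluster 0, in both libraries, at similar depth (medians of 8823 and 7613 UMIs in cluster 4 and 7995 and 7618 in cluster 0). Tpi1 followed Gapdh, with 120 and 112 CPM in cluster 4 and 61.6 and 61.0 CPM in cluster 0. Cluster 7, led by the interferon-response genes Cxcl9 and Cxcl10, shared the high Pfkp of cluster 0 at 219 and 243 CPM but had Gapdh at 776 and 754 CPM. Cluster 20, led by Gm42418 and Gm26917 with medians of 2334 and 2742 UMIs, had Gapdh at 462 and 459 CPM. This low-depth cluster also had high Pfkp, at 190 and 263 CPM, with Tpi1 at 76.5 and 64.1 CPM.

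**Figure D5:**
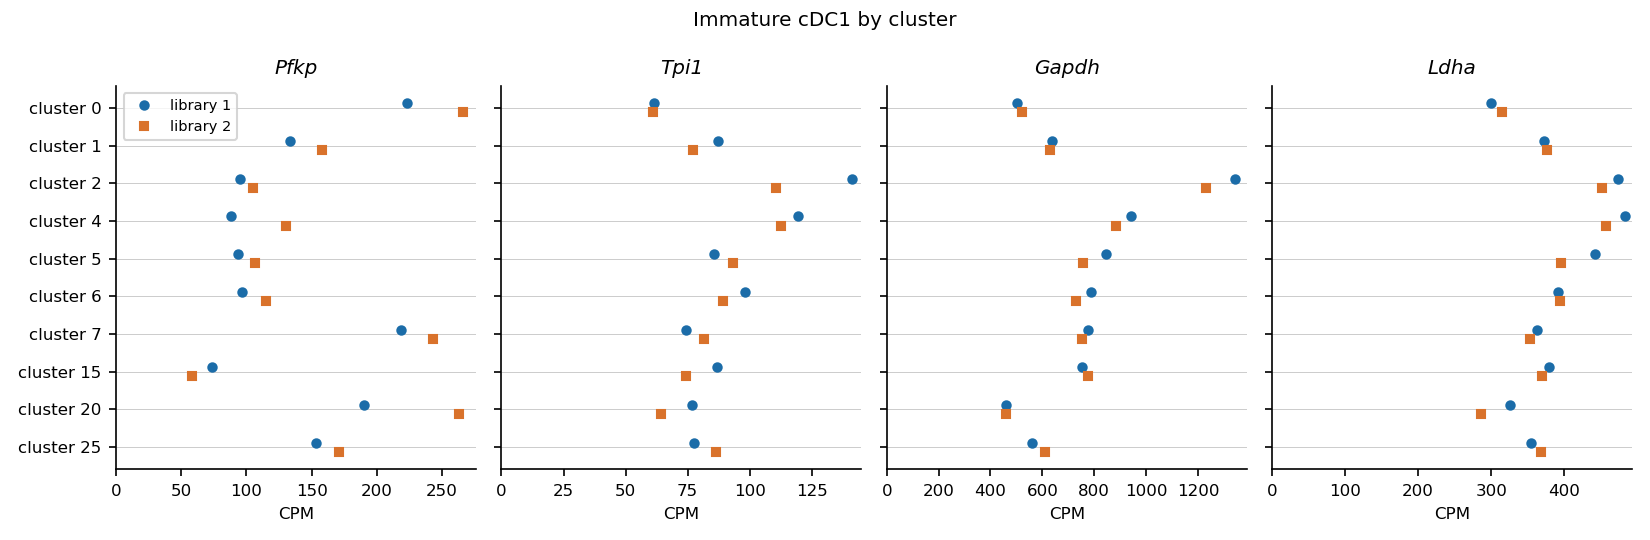
Levels (CPM, linear axes from 0) of Pfkp, Tpi1, Gapdh and Ldha in immature cDC1 of each cluster; circles are library 1 and squares library 2. Cluster 2, whose leading genes are of mitosis, has the highest Gapdh at 1344 and 1232 CPM. Clusters 0, 7 and 20 combine the highest Pfkp with lower Tpi1 than cluster 4, and cluster 20 has the lowest depth.

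Before maturity the lineages already differed. Immature cDC2 (1580 and 1730 cells) had 2 genes higher and 5 lower than immature cDC1, where 48.3% of all genes were called, 22.2% higher and 26.1% lower. Slc2a1 was at 12.9 and 10.96 CPM against 5.51 and 4.73 CPM (log2 1.05 ± 0.17, edgeR adjusted p = 1.27e-06). Eno1 was at 79.6 and 73.5 CPM against 35.6 and 34.6 CPM (log2 0.95 ± 0.06, edgeR adjusted p = 5.52e-17). Both were higher in cDC2 without overlap. Pfkp was at 54.6 and 74.3 CPM against 129.9 and 175.0 CPM (log2 -1.41 ± 0.08, edgeR adjusted p = 2.36e-19), and Pgk1 at 128 and 124 CPM against 222 and 218 CPM (-0.97 ± 0.09, 1.38e-11). Aldoa (156 and 161 CPM), Tpi1 (76.5 and 70.5 CPM) and Ldha (298 and 305 CPM) were lower as well (log2 -0.53, -0.42 and -0.51, edgeR adjusted p 7.05e-06 to 0.000289). Hk2, Gapdh and Pkm did not pass (log2 0.17, -0.18 and -0.06).

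Outside the 10, Slc2a3 was 4.62 ± 0.15 higher on the log2 scale in immature cDC2 (edgeR adjusted p = 4.39e-27) and Slc2a6 3.01 ± 0.23 higher (9.5e-15), at 8.34 and 10.2 CPM. Slc16a3, the lactate exporter MCT4, was at 11.5 and 9.79 CPM against 1.62 and 2.16 CPM (log2 2.30 ± 0.20, edgeR adjusted p = 8.16e-13). All 3 carriers were higher in cDC2 in both libraries, as Slc2a1 was. The hypoxia-response genes Vegfa (15.5 and 12.01 against 0.761 and 0.591 CPM, log2 4.14) and Ddit4 (10.8 and 10.1 against 0.558 and 0.591 CPM, log2 3.95) were higher as well (edgeR adjusted p = 1e-19 and 1.95e-16). Median depth was 4060 and 3895.5 UMIs in immature cDC2, below cDC1, and of the genes called 45.9% were higher, against 66.6% on library totals.

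Among lymphocytes, T cell-like cells were tested, and they held more Slc2a1 and less Hk2 than immature cDC1. T cell-like cells (888 and 767) had Slc2a1 at 21.7 and 18.4 CPM, 1.67 ± 0.19 above immature cDC1 on the log2 scale (edgeR adjusted p = 8.31e-10). Hk2 stood there at 12.1 and 11.2 CPM, below immature cDC1 (log2 -1.76 ± 0.15, edgeR adjusted p = 4.21e-13). In all, 2 of the 10 genes were higher and 4 lower, where 61.9% of 10584 genes were called, 27.7% higher and 34.2% lower. Eno1 was the other higher gene, at 126 and 114 CPM (log2 1.47 ± 0.07, edgeR adjusted p = 4.17e-21), and Pfkp (93.4 and 109 CPM), Tpi1 (69.5 and 77.0 CPM) and Pgk1 (192 and 186 CPM) were lower (log2 -0.88, -0.56 and -0.52). Aldoa, Gapdh, Pkm and Ldha did not pass. T cell-like cells also held Ldhb, the heart-type lactate dehydrogenase, at 14.9 and 10.8 CPM against 0.203 and 0.122 CPM (log2 5.93 ± 0.40, edgeR adjusted p = 6.9e-16) and Slc16a1 at 22.3 and 15.2 CPM (log2 2.56 ± 0.21, 8.3e-14). On library totals Gapdh and Pkm were called higher (0.35 and 0.38), and 44.8% of called genes were higher with TMM against 64.4% on totals. The class also held NK cell markers at 1441 and 1556 CPM (8 of 8 with a UMI), cDC1 markers at 999 and 1343 CPM (9 of 9) and cell cycle genes at 552 and 764 CPM, against 9.97 and 15.4, 5564 and 6063, and 73.6 and 78.2 CPM in immature cDC1. Their part in the result was not tested.

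NK cell-like cells (395 and 606) had the highest Slc2a1 of the 15 classes, at 32.2 and 24.2 CPM, above both T cell-like libraries. Their Eno1 was at 136 and 124 CPM and their Pfkp at 147 and 142 CPM, inside the immature cDC1 range. B cell-like cells (129 and 156) had Slc2a1 at 18.4 and 20.04 CPM from 15 UMIs, and Ldha at 208 and 193 CPM. Plasmacytoid dendritic cell-like cells (78 and 77) had the lowest mean Hk2 of the 15, at 8.64 and 3.13 CPM from only 4 UMIs. These values overlap the erythroid-like and mature cDC1 values, so this lowest place is not resolved. These classes were described only and not tested against cDC1.

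Erythroid-like cells (180 and 170), named from markers of red cell precursors, held other isozymes at 2 of the steps. Of the 10 genes 3 were higher and 5 lower than in immature cDC1, where 78% of all genes were called, 37.9% higher and 40.1% lower. Pfkp was at 21.5 and 20.1 CPM (log2 -3.24 ± 0.12, edgeR adjusted p = 1.47e-25), while Pfkm, the muscle-type phosphofructokinase, was at 40.4 and 35.3 CPM against 1.45 and 1.58 CPM (log2 4.23 ± 0.18, 1.38e-23). Pkm was at 92.9 and 78.5 CPM (log2 -1.63 ± 0.10, edgeR adjusted p = 1.16e-17), while Pklr, the liver and red cell pyruvate kinase, was at 43.2 and 47.5 CPM against 0.0254 and 0.104 CPM (log2 8.59 ± 0.28, 1.78e-21). At both steps the enzyme of the list was lower and a sister isozyme higher than in immature cDC1, in both libraries. In the whole erythroid-like class Pfkm exceeded Pfkp, whereas Pkm still exceeded Pklr. Without the granule-rich cells described below, Pkm was at 33.4 and 40.8 CPM, below the whole-class Pklr values. Pklr was not read without those cells, so the order of Pkm and Pklr in the remaining cells is not resolved.

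Tpi1 was at 341 and 308 CPM in erythroid-like cells, the highest of the 15 classes (log2 1.51 ± 0.09 above immature cDC1, edgeR adjusted p = 2.67e-18). Gapdh (1327 and 1258 CPM, 0.49 ± 0.09) and Eno1 (80.5 and 81.1 CPM, 0.82 ± 0.07) were higher too, and Pgk1 was lower (183 and 156 CPM, -0.76 ± 0.10). Hk2 was at 7.90 and 6.60 CPM (log2 -2.52 ± 0.17, edgeR adjusted p = 3.29e-17) and Slc2a1 at 3.11 and 0.660 CPM from 13 UMIs (-1.75 ± 0.36, 3.66e-05). Ldha, at 614 and 551 CPM, and Aldoa, at 315 and 288 CPM, did not pass with TMM but passed in 7 alternatives each. Slc16a1 was at 72.8 and 76.8 CPM (log2 4.47 ± 0.14, edgeR adjusted p = 1.72e-26), well above immature cDC1. Cell cycle genes summed to 4335 and 3995 CPM in erythroid-like cells, against 73.6 and 78.2 CPM in immature cDC1. Myeloid progenitor markers (7 of 7 with a UMI in both libraries) summed to 2080 and 2115 CPM, against 76.1 and 79.9 CPM. Median depth was 18102.5 and 17068.5 UMIs, against 8480.5 and 7644 UMIs. Their part in the result was not tested. The cluster included 21 and 19 cells rich in granule genes of myeloid progenitors, and without them Pkm was at -2.83 and Slc2a1 at -3.65. The remaining erythroid-like cells held Pkm at 33.4 and 40.8 CPM. At clustering resolution 1.5 Pkm was at -3.78, and without library 2 Pfkp was at -2.54 on library totals. Other settings put Slc2a1 between -4.11 and -0.66 and Hk2 between -4.25 and -1.58, and 48.6% of called genes were higher with TMM against 61.4% on totals.

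Myeloid progenitor-like cells (85 and 116) had the highest share of the 10 genes, 0.446% and 0.399% of RNA UMIs, and were described only. Aldoa was there at 598 and 499 CPM, Gapdh at 1793 and 1557 CPM, Pgk1 at 363 and 346 CPM, Eno1 at 219.5 and 219.0 CPM and Pkm at 725 and 672 CPM. For each of these 5 genes both libraries lay above those of the other 14 classes in the fit. The share of all genes with this order was not counted, so nothing is concluded from the count. Neutrophil-like, plasma cell-like and red pulp macrophage-like cells, with under 50 cells in each library, are not among the 15; in neutrophil-like cells (40 and 41) the 10 genes took 0.362% and 0.369% of RNA UMIs. Ldha was not 1 of the 5 genes highest in myeloid progenitor-like cells, where its mean was 354 CPM (SD 36.4 over the 2 libraries).

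Ordered by class means over the 15 classes, Slc2a1, Eno1 and Ldha were lowest in mature cDC1, and Tpi1, Gapdh and Pgk1 in mature cDC2. The mature cDC1 and mature cDC2 libraries overlapped for Slc2a1, Eno1, Ldha, Tpi1 and Gapdh, so the order of those 2 classes is not resolved. For Gapdh, mature cDC2 (674 and 501 CPM) also overlapped plasmacytoid dendritic cell-like cells (582 and 617 CPM). For Pgk1 it overlapped intermediate cDC2 (105 and 75.2 against 103 and 96.3 CPM). Slc2a1 in erythroid-like cells overlapped both mature classes. Tpi1 in plasmacytoid dendritic cell-like cells overlapped mature cDC2. These lowest places are therefore not resolved either. Pfkp had another order, highest in intermediate cDC1 and immature cDC1, whose ranges overlap, and lowest in erythroid-like cells. It was also the gene with the clearest difference between libraries, higher in library 2 in 5 of 5 cDC1 classes (median log2 0.44) and in 11 of all 15.

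Over the 15 class means, which share 2 libraries and differ in depth, the closest pairs among the 10 were Gapdh with Tpi1 (Pearson r = 0.85 of log2 CPM + 10), Ldha with Tpi1 (0.81) and Eno1 with Slc2a1 (0.77). Aldoa was the least like the others, with r = 0.09 against their mean and -0.25 against Hk2. Among 4384 genes outside the lists with at least 10 CPM in every class, those most like the mean profile were Rnpep (0.91), Ndufs4 (0.88), Tm6sf1, Ppp1ca and G3bp2 (0.87 each). Rnpep, an aminopeptidase, ranged from 15.4 CPM in mature cDC2 to 159 CPM in myeloid progenitor-like cells.

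Near-identical copies could take reads from some of these genes. The copy Eno1b held 237 UMIs against 10528 for Eno1, and Gapdh-ps14 held 29 against 176749 for Gapdh. A second Aldoa identifier at the same locus held 6 UMIs and was left out. Pfkp overlaps Pitrm1 over 285 bases and Tpi1 overlaps Spsb2 over 34, and no source names a strand setting for the counting, so reads there are uncertain.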

How the data were processed

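RNA and antibody tags were counted as UMIs per cell by the authors with Cell Ranger 3.1.0, per the file headers; STAR, Seurat 3.1.4 and mm10 are named in the submitters' processing notes. The deposited matrix holds raw counts for both libraries, told apart by barcode suffix; no source used here says which replicate each suffix is. Cells were kept with at least 500 genes, 1000 UMIs and under 10% mitochondrial UMIs, and Scrublet doublets were removed. Clustering (scanpy 1.11.5, 2000 variable genes less the members and related lists, 30 components, 15 neighbours, resolution 1.0) separated dendritic clusters, which had a mean of at least 8 surface CD11c UMIs, from other cells; that rule was chosen after the clusters were seen. Counts were summed per class and library for the 15 classes that reached 50 cells in both libraries and fitted together with edgeR 4.0.16 (TMM, filterByExpr, quasi-likelihood test, two-sided, Benjamini-Hochberg over all genes tested), with the library as a block, because all classes of a library come from the same cells. Genes used as gates or to name classes were left out of the tests, and for T cell-like and erythroid-like cells also the 1991 clustering genes. CPM are shares of library totals while fitted differences use TMM, so the 2 need not give the same ratio. The edgeR script was tested on simulated data. Alternatives included DESeq2 1.42.0, other scalings, gates, doublets kept and cells thinned to 3000 UMIs. All 10 members are named, and from each related list at most the 3 genes with the largest called difference per comparison. The members and lists were chosen with earlier results of these data known. The level of a marker gene is not reported here.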

Additional observations from a re-analysis of the deposited data

Results flagged for a closer look

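For 3 related genes the difference between mature and immature cells itself differed between cDC2 and cDC1, by the interaction term of the edgeR fit. They were 2 of 16 testable other glycolytic isozymes and steps and 1 of 9 testable glycogen genes. None was called in the remaining lists. Among all genes tested 7.53% were called for this term, 2.34% positive and 5.19% negative, so the count is not read as a result about the lists. The log2 interaction, cDC2 minus cDC1, was -3.87 ± 0.34 for Slc2a6 (edgeR adjusted p = 1.32e-11), -3.05 ± 0.15 for Eno3 (1.3e-19) and -3.59 ± 0.29 for Pygl (1.55e-12). Slc2a6 was at 0.761 and 1.20 CPM in immature cDC1 and at 8.34 and 10.2 CPM in immature cDC2, against 72.6 and 56.0 CPM in mature cDC1 and 34.0 and 47.7 CPM in mature cDC2. Eno3 was at 9.41 and 9.05 CPM and 67.4 and 67.2 CPM in immature cDC1 and cDC2, and at 452 and 337 CPM and 360 and 348 CPM in the mature classes. Pygl went from 0.888 and 0.818 to 45.7 and 51.3 CPM in cDC1 and from 15.2 and 14.8 to 69.7 and 73.4 CPM in cDC2. For each gene the ratio between the lineages was smaller in the mature than in the immature classes.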

How the results depend on the processing

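Over the 10 comparisons, alternatives other than leaving out a library left 1299 values of the members on their side of the threshold, with the direction kept where a gene was called, took 47 called values past the threshold, brought 42 others inside it and reversed 2. The reversed values were in cycling cDC1 on library totals, 0.050 for Hk2 and 0.24 for Pgk1. Leaving out a library, which gives log2 ratios of CPM + 1 on library totals with no test, left 178 values with the direction kept wherever the gene was called, and reversed 2 called genes: Hk2 in cycling cDC1 was at -0.0172 and 0.12 without library 1 and 2, and Gapdh between the mature classes at -0.434 and 0.0133. Intermediate cDC1 had 2 of 10 genes called with doublets kept, against 4. In Ccr2-high cDC1, 4 members were called on library totals, 0 with no replicate block and 1 with a lineage gate 2-fold apart, against 2, and 724 and 556 genes of all were called with no replicate block and with that gate, against 1093. The library block changed no other count of calls by over 1.5 times. With cells thinned to 3000 UMIs, mature against immature cDC2 had 4 members and 2533 genes called (8 and 3937 otherwise), the mature classes 724 genes (1261), cycling cDC1 3117 (6281) and erythroid-like cells 4937 (8256). Why counts changed was not tested beyond the fewer UMIs and cells that thinning and gating leave. Depth limits the mature classes: Slc2a1 rests on 2 UMIs in mature cDC1 and 1 in mature cDC2, and these classes hold few cells. Omission of the low-RNA cluster and of granule-rich erythroid cells was chosen after seeing the data.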
